A study of Homo sapiens with 15 samples.

Results

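Transcripts of the colony-stimulating factors CSF1, CSF2 and CSF3, of the IL6-family ligands IL6, LIF and IL11, and of the cytokines IL32, IL23A, IL24 and TSLP were followed in HSC-5 cells, a line from a human skin squamous cell carcinoma. They are 10 of the 60649 genes in the count tables and were picked by gene symbol. CSF3 and IL32 had been picked because they rose after knockout, so their levels are given throughout as a description, without a test. The other 8 were tested in every comparison, and all 8 passed the filter on low counts each time.

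The cells expressed Cas9 and received lentiviral sgRNAs, and all of them, controls included, were selected with neomycin (G418). Control cells carried sgNeg, which the study calls an empty vector control, and are labelled wild type, PRMT5 knockout cells (PRMT5KO) carried sgPRMT5-1 or sgPRMT5-2, and WDR77 knockout cells (WDR77KO) carried sgWDR77-1 or sgWDR77-2. PRMT5 is an arginine methyltransferase and WDR77 is its binding partner, and the sgRNAs aim at exons for the catalytic domain of PRMT5 and for the first WD repeat of WDR77. Each of the 5 conditions had 3 libraries labelled biological replicates, which gave 15 libraries. The study does not say whether they came from infected populations or from single clones.

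The colony-stimulating factors were named for their support of blood cell colonies: CSF1 (M-CSF) acts on macrophages, CSF2 (GM-CSF) on granulocytes and macrophages, and CSF3 (G-CSF) on neutrophils. IL6, LIF and IL11 bind a receptor chain of their own and signal through the shared chain IL6ST (gp130) to JAK kinases and STAT3, whereas IL23A is a subunit of interleukin-23, IL24 belongs to the IL10 family, TSLP is an epithelial alarmin, and IL32 is a proinflammatory cytokine made by lymphocytes and epithelial cells. Keratinocytes make several of these factors when wounded or inflamed, and the short-lived mRNAs of CSF2, CSF3, IL6 and LIF carry AU-rich elements that RNA-binding proteins read.

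Between 5146711 and 6730428 reads per library fell on genes (median 5806938). Levels are given in CPM, counts scaled by library size with TMM factors, and the precision of a value of a few CPM is set by a handful of reads. PRMT5 was at 58.9 ± 9.10 CPM in sgNeg, 36.8 ± 4.29 with sgPRMT5-1 and 42.7 ± 2.85 with sgPRMT5-2 (SD, n = 3 each), and WDR77 was at 119 ± 5.70 CPM in sgNeg, 45.4 ± 12.6 with sgWDR77-1 and 24.5 ± 2.33 with sgWDR77-2. Both targeted genes therefore fell in their own knockouts. All 9 squamous keratinocyte markers were read, although KRT14 was near 0 in every library (1 to 4 reads). KRT5 fell from a mean of 656 CPM in sgNeg to 270.3 and 55.9 CPM with sgPRMT5-1 and sgPRMT5-2 and to 40.0 and 91.3 CPM with sgWDR77-1 and sgWDR77-2 (adjusted p of 4.33e-05 or less for each). The desmosomal gene DSG3 also fell (log2 fold change -0.70 in PRMT5KO and -0.82 in WDR77KO, adjusted p = 0.00604 and 0.00146), and CDH1 rose (0.31 and 0.40, adjusted p = 0.00955 and 0.0175). SFN rose in PRMT5KO (0.40, adjusted p = 0.00551). TP63, KRT17, ITGA6 and ITGB4 passed in neither pooled comparison, but KRT17 rose with sgWDR77-2 (0.82, adjusted p = 1.23e-05) and ITGB4 with sgPRMT5-2 (0.24, adjusted p = 0.00986). The part of these changes in the cytokine results was not tested. The T cell markers CD3D, CD3E and CD2 were at 0 in all 15 libraries, and PTPRC, the marker of all leukocytes, was listed at 0 in all conditions but sgWDR77-1. In bulk RNA of this kind, a change in the number of cells that make a transcript and a change in the amount per cell cannot be told apart.

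Upstream sequences were read from RefSeq windows on GRCh38.p14, because cytokine genes of this kind are known for inducible promoters. Windows were found for 7 of the 10 members (10 windows), and CSF1, CSF3 and LIF had none. In the 250 bases before each start, both strands were searched for AP-1 (TGANTCA), C/EBP (TTGC and CAA with 1 base between), STAT (TTC and GAA with 3 bases between), the TATA box (TATAAA or TATATA), the NF-kappaB consensus, and the CK-1 element of CSF2, whose 10 letters are the second run of capitals in the CSF2 sequence. In IL23A the NF-kappaB, AP-1 and TATA matches follow each other without overlap. The 200 bases before the start of CSF2 (chr5:132073589-132073788, plus strand), IL24 (chr1:206897243-206897442, plus strand), IL11 (chr19:55370464-55370663, minus strand) and IL23A (chr12:56338684-56338883, plus strand) read as follows, 5′ to 3′, with the motif matches in capitals.
CSF2: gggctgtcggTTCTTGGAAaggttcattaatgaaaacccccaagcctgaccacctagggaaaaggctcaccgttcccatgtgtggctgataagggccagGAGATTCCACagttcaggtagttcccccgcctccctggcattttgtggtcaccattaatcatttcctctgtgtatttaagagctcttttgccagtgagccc
IL24: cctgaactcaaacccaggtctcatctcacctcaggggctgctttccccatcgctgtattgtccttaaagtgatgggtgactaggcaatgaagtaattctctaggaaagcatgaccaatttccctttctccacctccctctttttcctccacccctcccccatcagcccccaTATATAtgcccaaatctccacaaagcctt
IL11: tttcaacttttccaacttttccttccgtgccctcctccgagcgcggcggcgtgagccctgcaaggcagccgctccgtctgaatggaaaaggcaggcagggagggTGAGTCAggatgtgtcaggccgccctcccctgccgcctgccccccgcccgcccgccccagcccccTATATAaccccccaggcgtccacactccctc
IL23A: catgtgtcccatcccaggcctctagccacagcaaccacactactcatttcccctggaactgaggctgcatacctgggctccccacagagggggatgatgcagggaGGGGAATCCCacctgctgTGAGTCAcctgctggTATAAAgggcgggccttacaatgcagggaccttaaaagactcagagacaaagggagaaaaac
These 4 are shown because all 4 genes rose with sgPRMT5-2 and none of the bases printed lies in an annotated exon.

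The CK-1 element of CSF2 lay 101 to 92 bases upstream of its start. It was searched as the fixed run of letters known from CSF2, so the match there was given in advance. This run occurred in 14 of 35116 windows (0.0399%), a share that cannot be set beside those of the looser motifs. The STAT match of CSF2 began 190 bases upstream, and 6.57% of windows held one. AP-1 matches stood 96 bases upstream in IL11 and 77 bases upstream in IL23A, and 6.57% of windows held one. The NF-kappaB consensus was matched in IL23A, IL32, IL6 and in 1 window of TSLP, against 5.21% of windows, and the C/EBP motif in IL6, against 2.27% of windows. IL11, IL23A, IL24 and TSLP held a TATA box, against 12.8% of windows. A match is a run of letters and not a measured binding site, and the lack of a match says only that these letters were not in the window.

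CSF2, the GM-CSF gene, was nearly silent in sgNeg and rose with both PRMT5 sgRNAs, more with sgPRMT5-2. It was counted at 3, 8 and 3 reads in the sgNeg libraries, at 44, 34 and 24 with sgPRMT5-1, at 188, 180 and 150 with sgPRMT5-2, at 4, 14 and 10 with sgWDR77-1 and at 6, 5 and 2 with sgWDR77-2. Every PRMT5KO library was above every sgNeg and every WDR77KO library, and both WDR77 sgRNAs overlapped sgNeg. Mean levels were 0.789 ± 0.456 CPM in sgNeg, 5.53 ± 1.32 with sgPRMT5-1 and 28.4 ± 2.7 with sgPRMT5-2 (SD, n = 3 each), which are 7.01 and 36.0 times the sgNeg mean. By limma voom over all genes, the log2 fold change against sgNeg was 2.76 with sgPRMT5-1 (SE 0.469, adjusted p = 0.00234) and 5.12 with sgPRMT5-2 (SE 0.437, adjusted p = 2.33e-08). With sgWDR77-1 it was 1.03 (SE 0.609, adjusted p = 0.405) and with sgWDR77-2 -0.0053 (SE 0.616, adjusted p = 0.997). The interval for sgWDR77-2 ran from -1.32 to 1.31, so it holds a 2-fold change in either direction.

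CSF1, the M-CSF gene and the colony-stimulating factor with the highest count, did not follow CSF2. It was counted at 672, 553 and 565 reads in sgNeg, at 771, 647 and 595 with sgPRMT5-1, at 663, 544 and 518 with sgPRMT5-2, at 652, 722 and 947 with sgWDR77-1 and at 440, 599 and 648 with sgWDR77-2. Only sgWDR77-1 did not overlap sgNeg, at 142 ± 27.2 against 102 ± 11.4 CPM (SD, n = 3 each). That difference did not pass the threshold (log2 fold change 0.49, adjusted p = 0.0946), but did without sgWDR77-1 replicate 1 (0.59, adjusted p = 0.00628). With the PRMT5 sgRNAs the log2 fold change was 0.09 (95% interval -0.11 to 0.30, adjusted p = 0.658) and -0.12 (-0.31 to 0.07, adjusted p = 0.313), and both intervals leave out a 2-fold change. Without sgNeg replicate 2, CSF1 fell with sgPRMT5-2 (-0.21, adjusted p = 0.0482).

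CSF3, the G-CSF gene, was chosen for its rise and stayed a gene of few reads throughout. The counts were 1, 1 and 0 in sgNeg, 6, 5 and 3 with sgPRMT5-1, 23, 14 and 12 with sgPRMT5-2, 3, 9 and 7 with sgWDR77-1, and 0, 1 and 1 with sgWDR77-2. The libraries of 3 sgRNAs lay above all sgNeg libraries, and those of sgWDR77-2 did not. Since sgNeg held 2 reads in all, ratios are given with an exact 95% interval that covers counting error only. The interval shows how loosely 2 reads fix a ratio and is no test, because this rise is what CSF3 was chosen for. The ratio to sgNeg was 6.70 (1.54 to 60.8) for the 14 reads of sgPRMT5-1, 23.5 (6.18 to 200) for the 49 reads of sgPRMT5-2 and 10.2 (2.46 to 90.3) for the 19 reads of sgWDR77-1. No ratio is given for sgWDR77-2, which also had 2 reads in all.

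**Figure D1:**
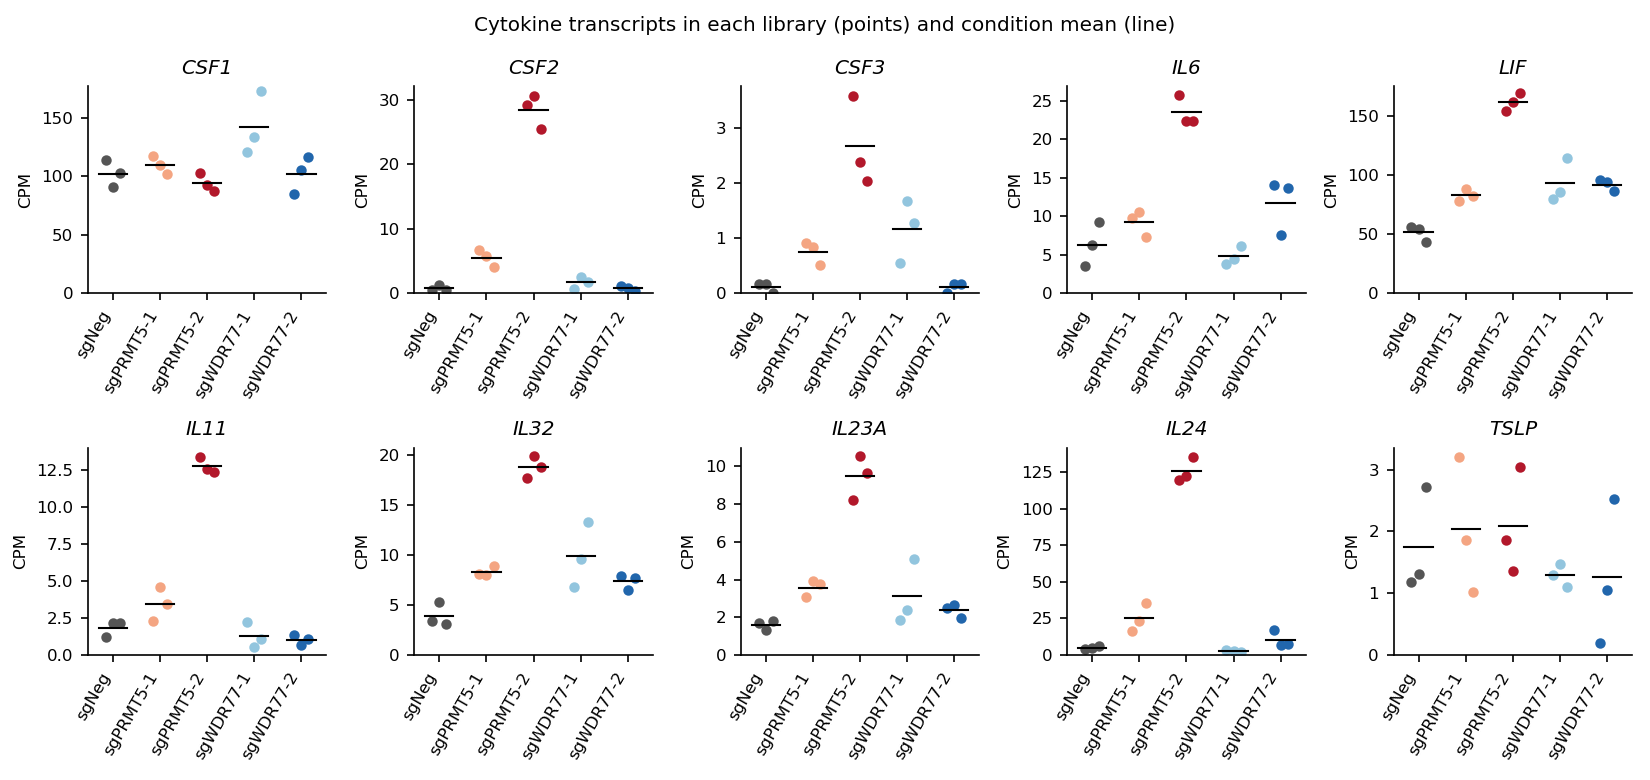
Level of each of the 10 cytokine transcripts in CPM (y axis, linear, from 0, on a scale of its own in each panel) in the 5 conditions (x axis). Points are the 3 libraries of a condition and the line is their mean. For 8 genes the sgPRMT5-2 libraries stand above all others, whereas CSF1 and TSLP show no such step.

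Among the IL6 family, LIF was the member with the highest level and the member that rose with all 4 sgRNAs. LIF encodes leukemia inhibitory factor. It was counted at 333, 332 and 240 reads in sgNeg, at 510, 518 and 482 with sgPRMT5-1, at 992, 948 and 997 with sgPRMT5-2, at 433, 463 and 627 with sgWDR77-1 and at 496, 530 and 479 with sgWDR77-2. No knockout library overlapped sgNeg. Means were 51.5 ± 6.95 CPM in sgNeg, 82.8 ± 5.01 and 161 ± 7.24 with sgPRMT5-1 and sgPRMT5-2, and 93.4 ± 18.4 and 91.8 ± 4.90 with sgWDR77-1 and sgWDR77-2 (SD, n = 3 each). The log2 fold change against sgNeg was 0.67 with sgPRMT5-1 (adjusted p = 0.00248) and 1.64 with sgPRMT5-2 (adjusted p = 8.02e-11). With sgWDR77-1 it was 0.88 (adjusted p = 0.0130) and with sgWDR77-2 0.83 (adjusted p = 0.000543). The sgWDR77-1 call was lost when any 1 of the 3 sgNeg libraries was left out (adjusted p = 0.0542, 0.0561 and 0.114 without sgNeg replicate 1, 2 and 3), with the log2 fold change then between 0.76 and 0.94. LIF shares 83 exonic bases with the antisense gene LIF-AS2, which held 5 to 26 reads per library, far fewer than LIF.

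IL6, an inflammatory cytokine of many cell types, rose with sgPRMT5-2. Its counts were 21, 38 and 51 in sgNeg, 64, 62 and 43 with sgPRMT5-1, 166, 132 and 132 with sgPRMT5-2, 21, 24 and 34 with sgWDR77-1, and 73, 43 and 76 with sgWDR77-2. Libraries of sgPRMT5-1 and of both WDR77 sgRNAs overlapped sgNeg, and those of sgPRMT5-2 did not. The mean rose from 6.35 ± 2.85 to 23.5 ± 1.98 CPM (SD, n = 3 each), and the log2 fold change was 1.98 (SE 0.228, adjusted p = 1.20e-06). The values for the other sgRNAs were 0.62 with sgPRMT5-1 (adjusted p = 0.230), -0.26 with sgWDR77-1 (adjusted p = 0.745) and 0.93 with sgWDR77-2 (adjusted p = 0.108). Without sgWDR77-2 replicate 2, the lowest of its condition, the last of these passed (log2 fold change 1.24, adjusted p = 0.0427).

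IL11, which is made by many stromal and epithelial cells, rose with sgPRMT5-2. Its counts were 7, 13 and 12 in sgNeg, 15, 27 and 20 with sgPRMT5-1, 86, 74 and 73 with sgPRMT5-2, 12, 3 and 6 with sgWDR77-1, and 7, 4 and 6 with sgWDR77-2. All PRMT5KO libraries were above all sgNeg libraries, and the WDR77KO libraries overlapped sgNeg. The mean was 1.83 ± 0.561 CPM in sgNeg and 12.8 ± 0.534 with sgPRMT5-2 (SD, n = 3 each), a log2 fold change of 2.79 (SE 0.308, adjusted p = 7.12e-07). For sgPRMT5-1 the value was 0.84 (adjusted p = 0.258), and for the WDR77 sgRNAs it was -0.59 (adjusted p = 0.611) and -0.76 (adjusted p = 0.394).

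IL24, a cytokine of the IL10 family, became the most abundant member per kilobase of exon with sgPRMT5-2. It was counted at 23, 30 and 34 reads in sgNeg, at 105, 138 and 208 with sgPRMT5-1, at 768, 719 and 798 with sgPRMT5-2, at 17, 16 and 10 with sgWDR77-1 and at 89, 39 and 42 with sgWDR77-2. Both PRMT5 sgRNAs put every library above sgNeg. The sgWDR77-1 libraries all lay below sgNeg and the sgWDR77-2 libraries all lay above it. Means were 5.0 ± 1.14 CPM in sgNeg, 25.0 ± 9.88 with sgPRMT5-1 and 126 ± 8.33 with sgPRMT5-2 (SD, n = 3 each), which are 5.01 and 25.1 times the sgNeg mean. The log2 fold change was 2.22 with sgPRMT5-1 (SE 0.329, adjusted p = 0.000702) and 4.65 with sgPRMT5-2 (SE 0.197, adjusted p = 9.92e-13). Neither WDR77 sgRNA passed the threshold, at -0.87 (adjusted p = 0.202) and 0.94 (adjusted p = 0.126).

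IL24 shares 823 exonic bases with FCMR, which is transcribed from the opposite strand. The labels name a stranded protocol and the study's methods name an unstranded kit, and the strand setting of the counting is not given, so some reads of the shared bases may have been left out or placed on the other gene. FCMR held 7 to 11 reads in the sgNeg libraries, against 23 to 34 on IL24, and 19 to 28 with sgPRMT5-2, against 719 to 798. With sgPRMT5-1 the ranges were 18 to 24 on FCMR and 105 to 208 on IL24. They were 12 to 19 and 10 to 17 with sgWDR77-1, and 13 to 23 and 39 to 89 with sgWDR77-2. The part of shared reads in the IL24 values was not tested.

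IL32 was the other member chosen for its rise. Its counts were 20, 32 and 17 in sgNeg, 53, 47 and 52 with sgPRMT5-1, 114, 117 and 111 with sgPRMT5-2, 37, 52 and 73 with sgWDR77-1, and 41, 37 and 43 with sgWDR77-2. The libraries of all 4 sgRNAs were above all sgNeg libraries, with sgPRMT5-2 the highest. Relative to the sgNeg mean of 3.91 ± 1.18 CPM (SD, n = 3), the means were 2.13 and 4.81 times as high with sgPRMT5-1 and with sgPRMT5-2, and 2.54 and 1.89 times as high with sgWDR77-1 and with sgWDR77-2. IL32 is known as a product of T and NK cells, and of the 7 markers of those cells the summed count was 0 to 4 reads in every library.

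IL23A, which encodes the p19 subunit of interleukin-23, was lower in count and rose with sgPRMT5-2. Its counts were 10, 8 and 10 in sgNeg, 20, 23 and 22 with sgPRMT5-1, 53, 62 and 57 with sgPRMT5-2, 10, 13 and 28 with sgWDR77-1, and 13, 15 and 11 with sgWDR77-2. In CPM, the libraries of each of the 4 sgRNAs lay above sgNeg, although those of sgWDR77-1 did so by a small margin (lowest 1.85 against a highest sgNeg value of 1.81 CPM). The log2 fold change was 2.50 with sgPRMT5-2 (SE 0.326, adjusted p = 5.33e-06) and did not pass with sgPRMT5-1 (1.09, adjusted p = 0.0992), sgWDR77-1 (0.84, adjusted p = 0.365) or sgWDR77-2 (0.54, adjusted p = 0.461). The neighbouring genes PAN2 and STAT2, 121 and 1187 bases away from IL23A, went the other way with sgPRMT5-2 (log2 fold change -0.94 and -0.67, adjusted p = 1.73e-05 and 1.09e-05).

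TSLP, an alarmin of epithelia, gave 1 to 21 reads per library and no group stood apart. The counts were 7, 8 and 15 in sgNeg, 21, 11 and 6 with sgPRMT5-1, 12, 8 and 18 with sgPRMT5-2, 7, 8 and 6 with sgWDR77-1, and 1, 6 and 14 with sgWDR77-2. Every condition overlapped sgNeg. The log2 fold changes ran from -0.81 with sgWDR77-2 (95% interval -2.20 to 0.59) to 0.28 with sgPRMT5-2 (-0.63 to 1.19), with adjusted p from 0.531 to 0.855. For each of the 4 sgRNAs the interval reached past a 2-fold change in 1 direction and left it out in the other.

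**Figure D2:**
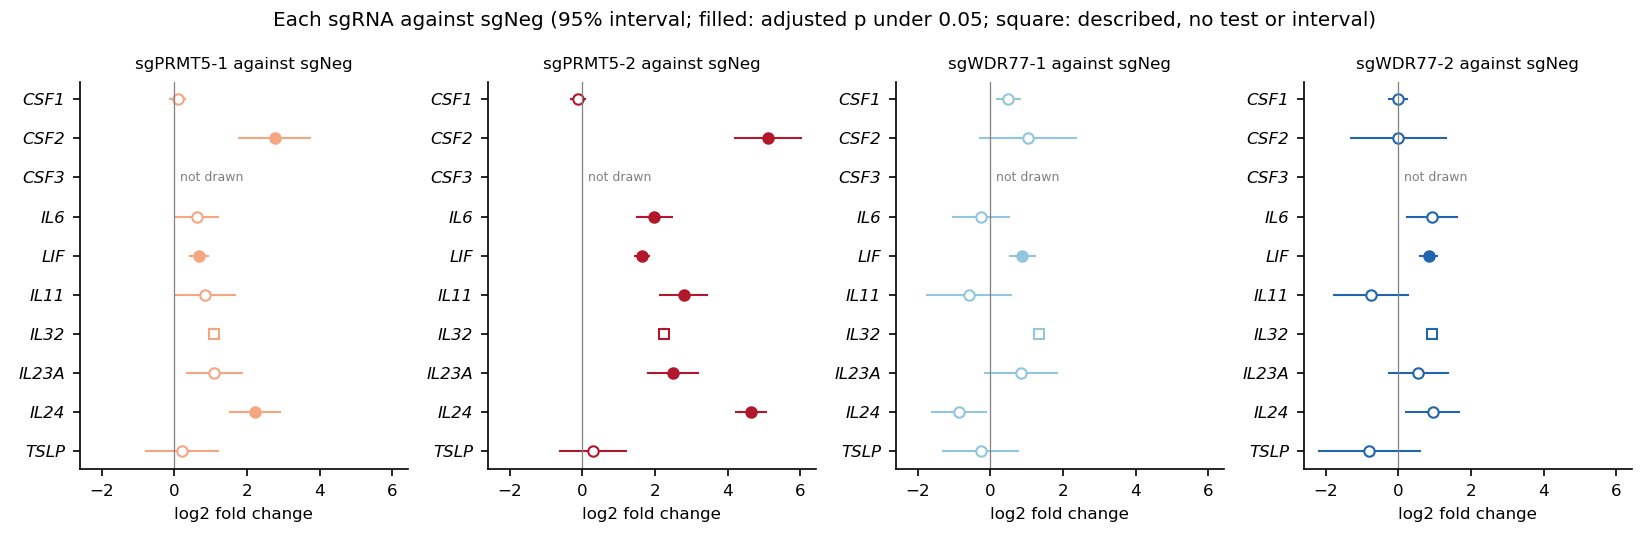
Log2 fold change against sgNeg (x axis) for each sgRNA (panels), with 95% intervals for tested members and filled points for an adjusted p under 0.05. Squares without an interval mark IL32, which is described without a test, and CSF3 is not drawn because sgNeg held 2 reads in all. With sgPRMT5-2, 6 of 8 tested members are filled, and LIF is filled in all 4 panels.

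Counted over the 8 tested members, 3 rose with sgPRMT5-1 (CSF2, LIF and IL24), where 1.52% of all genes tested were called higher and 2.24% lower. With sgPRMT5-2 6 rose (CSF2, IL6, LIF, IL11, IL23A and IL24), against 20.9% of all genes higher and 19.3% lower. LIF alone rose with sgWDR77-1 (1 of 8, against 1.04% of all genes higher and 1.67% lower) and with sgWDR77-2 (1 of 8, against 1.89% higher and 3.08% lower). No member fell with any sgRNA by this test.

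By libraries that did not overlap sgNeg, 5 of the 8 were higher with sgPRMT5-1 (14.4% of all genes higher, 9.85% lower) and 6 of the 8 with sgPRMT5-2 (26.2% higher, 24.1% lower). With sgWDR77-1 there were 3 higher and 1 lower (10.7% of all genes higher, 13.3% lower), and with sgWDR77-2 3 higher (12.9% higher, 12.6% lower). The median log2 fold change of the 8 was 0.75 with sgPRMT5-1, 2.24 with sgPRMT5-2, 0.11 with sgWDR77-1 and 0.27 with sgWDR77-2, beside medians of all genes between 0.0014 and 0.0243. These 4 comparisons share the 3 sgNeg libraries.

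With the PRMT5 sgRNAs pooled, fewer members passed than with either alone. In PRMT5KO against sgNeg, 2 of the 8 members passed, LIF (log2 fold change 1.16, adjusted p = 0.0139) and IL23A (1.79, adjusted p = 0.0456), where 8.73% of all genes were called higher and 8.30% lower. Libraries did not overlap for 5 of the 8, all higher (11.5% of all genes higher, 7.73% lower). CSF2 (3.93, SE 1.54, adjusted p = 0.0899), IL24 (3.44, SE 1.22, adjusted p = 0.0655), IL11 (1.81, SE 0.778, adjusted p = 0.118) and IL6 (1.30, SE 0.485, adjusted p = 0.0774) did not pass, in a fit that treats the libraries of both PRMT5 sgRNAs as replicates of 1 group. With a term for each condition and all 15 libraries in the fit, 6 of 8 passed, these 4 included (adjusted p = 4.23e-06, 1.34e-07, 0.000522 and 0.000887). That fit takes its error from libraries of the same sgRNA, so these p-values do not measure the spread between the PRMT5 sgRNAs. In the pooled fit without sgPRMT5-1 replicate 1, IL24, IL11 and IL6 passed as well (adjusted p = 0.0140, 0.0278 and 0.0398), and without sgPRMT5-1 replicate 2 IL24 did (adjusted p = 0.0464). LIF was lost when any 1 sgNeg library was left out (adjusted p from 0.0602 to 0.0667). IL23A was lost without sgNeg replicate 1, 2 or 3, sgPRMT5-1 replicate 3 or any 1 sgPRMT5-2 library (adjusted p from 0.0534 to 0.156).

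In WDR77KO against sgNeg, LIF alone of the 8 passed (log2 fold change 0.84, SE 0.131, adjusted p = 0.00132), where 0.838% of all genes were called higher and 2.55% lower. LIF and IL23A were the 2 of 8 whose libraries lay above sgNeg without overlap (4.41% of all genes higher, 6.23% lower). LIF kept its call without each library in turn. The other 7 had adjusted p from 0.414 to 0.990, IL23A the lowest, and the highest was that of IL24, whose WDR77KO libraries ran from 1.82 to 17.1 CPM.

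The sgRNAs of one gene were also set against each other, without sgNeg, for the same 8 members. With sgPRMT5-2 against sgPRMT5-1, 6 of the 8 were higher, where 9.94% of all genes were called higher and 9.31% lower, and in all 6 the libraries of the sgRNAs did not overlap (17.1% of all genes higher, 17.5% lower). The largest differences were those of IL24 (log2 fold change 2.42, 95% interval 2.09 to 2.75, adjusted p = 1.73e-09) and CSF2 (2.36, 1.95 to 2.77, adjusted p = 3.82e-08). IL11 followed at 1.95 (adjusted p = 1.16e-05), IL23A at 1.39 (adjusted p = 0.000360), IL6 at 1.36 (adjusted p = 5.44e-06) and LIF at 0.97 (adjusted p = 2.84e-08). CSF3 and IL32, given without a test, were at 3.5 and 2.26 times the mean CPM of sgPRMT5-1, from 49 against 14 reads for CSF3 and from 18.8 against 8.33 CPM for IL32. CSF1 (-0.21, adjusted p = 0.0731) and TSLP (0.07, adjusted p = 0.926) did not pass, although CSF1 fell past the threshold without sgPRMT5-1 replicate 3 (-0.26, adjusted p = 0.00258) and with library totals alone as the scaling (-0.24, adjusted p = 0.044). The PRMT5 transcript itself was not lower with sgPRMT5-2 than with sgPRMT5-1 (log2 fold change 0.23, adjusted p = 0.146), which measures mRNA and not protein.

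With sgWDR77-2 against sgWDR77-1, 0 of 8 members passed by limma voom, where 0.0999% of all genes were called higher and 0.0214% lower. At an unadjusted p under 0.05 there were 3 members, of which IL24 (log2 fold change 1.84, 95% interval 0.91 to 2.77, adjusted p = 0.158) and IL6 (1.22, 0.54 to 1.90, adjusted p = 0.189) were higher with sgWDR77-2. CSF1 (-0.48, adjusted p = 0.275) was lower. In the libraries, all 3 of these genes were without overlap between the sgRNAs (11.4% of all genes higher, 8.64% lower). CSF1 passed without sgWDR77-1 replicate 1 (adjusted p = 0.0453). limma-trend also called 0 of the 8, and 2 (IL6 and IL24) passed with all 15 libraries in one fit (adjusted p = 0.0422 and 0.0432). CSF3, given without a test, had 2 reads with sgWDR77-2 and 19 with sgWDR77-1. sgWDR77-1 replicate 3 was the highest WDR77KO library for CSF1, LIF, IL32 and IL23A alike.

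PRMT5KO against WDR77KO compared 6 libraries with 6, again without sgNeg. CSF2 (log2 fold change 3.45, SE 0.866, adjusted p = 0.0159), IL24 (3.43, SE 0.768, adjusted p = 0.00919), IL11 (2.51, SE 0.617, adjusted p = 0.0142) and IL23A (1.13, SE 0.363, adjusted p = 0.0458) were higher in PRMT5KO, which is 4 of the 8 tested members against 7.99% of all genes higher and 6.01% lower. CSF2 and IL11 libraries did not overlap between the knockouts (2.83% of all genes higher, 1.80% lower), and those of IL23A and IL24 did. Mean IL23A was 3.58 CPM with sgPRMT5-1 and 9.47 with sgPRMT5-2, beside 3.12 with sgWDR77-1 and 2.38 with sgWDR77-2. With sgPRMT5-1 and sgPRMT5-2 respectively, IL24 was at 25.0 and 126 CPM, CSF2 at 5.53 and 28.4, and IL11 at 3.43 and 12.8. By the exact permutation test of mean CPM (two-sided, 924 arrangements), the unadjusted p was 0.00216 for CSF2 and IL11, the smallest it can give, 0.00433 for IL24 and 0.0303 for IL23A. Both the fit and this test treated the libraries of both sgRNAs of a gene as replicates of 1 group. Since the test shuffled single libraries whatever sgRNA they carried, its p does not measure the spread between sgRNAs. IL23A was lost without any 1 library of sgPRMT5-2, sgWDR77-1 or sgWDR77-2 (adjusted p from 0.0503 to 0.106), with RLE size factors, upper quartile factors or library totals alone and with the replicate block, and so passed under 7 of the 20 alternative fits. CSF2, IL11 and IL24 passed under each of the 20. LIF differed by 0.33 (95% interval -0.06 to 0.71, adjusted p = 0.229) and IL6 by 0.99 (0.23 to 1.75, adjusted p = 0.0726). With all 15 libraries in one fit both passed (adjusted p = 0.00594 and 0.000808), which made 6 of 8. The error of that fit leaves out the difference between the sgRNAs of a gene. IL6 also passed without sgPRMT5-1 replicate 1, sgPRMT5-1 replicate 3 or sgWDR77-2 replicate 1 (adjusted p from 0.0375 to 0.0456), and CSF1 without sgWDR77-2 replicate 1 (-0.35, adjusted p = 0.0348). CSF3 was at 63 reads in PRMT5KO and 21 in WDR77KO, and IL32 at a mean of 13.6 and 8.66 CPM, given without a test.

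**Figure D3:**
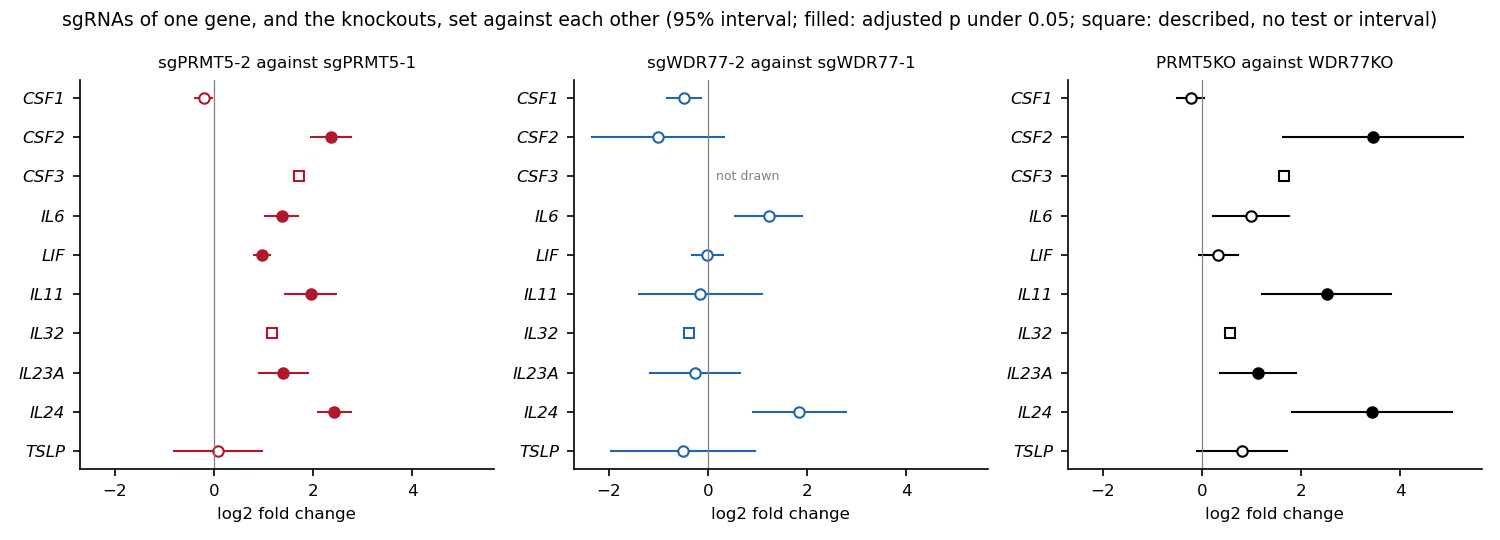
Log2 fold change (x axis) of the 10 members between the sgRNAs of PRMT5, between the sgRNAs of WDR77, and between PRMT5KO and WDR77KO (panels), with 95% intervals and filled points for an adjusted p under 0.05. Squares without an interval are CSF3 and IL32, described without a test, and CSF3 is not drawn in the middle panel because sgWDR77-2 held 2 reads in all. Of the 8 tested members, 6 are filled in the left panel, 0 in the middle panel and 4 in the right panel.

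Compared per kilobase of exon, CSF1 and LIF were the most abundant members in sgNeg, at 19.5 ± 2.19 and 13.3 ± 1.80 CPM per kilobase (SD, n = 3 each), and IL24 followed at 2.53 ± 0.575. From IL24 down to TSLP each gene overlapped the next in the order IL6, IL23A, IL32, CSF2, IL11 and TSLP, and CSF3 was last at 0.0501 ± 0.0434 CPM per kilobase. With sgPRMT5-2 the order began with IL24 (63.4 ± 4.21), LIF (41.7 ± 1.87), CSF2 (36.0 ± 3.43) and CSF1 (18.0 ± 1.51 CPM per kilobase), and no 2 neighbours among these 4 overlapped. LIF and CSF1 shared the lead with sgPRMT5-1 (21.4 ± 1.29 and 21.0 ± 1.52) and with sgWDR77-1 (24.1 ± 4.77 and 27.2 ± 5.2 CPM per kilobase), in both cases with overlapping libraries. With sgWDR77-2 LIF was above CSF1 without overlap (23.7 ± 1.27 and 19.5 ± 3.10). These levels use all annotated exons of a gene. With the length of the MANE transcript alone IL6 and IL32 were higher, at 5.63 and 4.78 CPM per kilobase in sgNeg and 20.9 and 23.0 with sgPRMT5-2, and CSF1 came before LIF with sgPRMT5-1 and with sgWDR77-2.

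Over the 15 libraries, the genes most like each member in log2 CPM were sought among 11843 genes with a mean of at least 10 reads, which left out CSF3 and TSLP. IL32 and LIF were among each other's nearest (Pearson r = 0.959), beside TNFSF15 and SAMD4A for LIF and TNFRSF9 and RNASE7 for IL32. CSF2 was nearest to TRAF1 (r = 0.959), ETS1 and CORO2B, IL11 to HMGA2 (r = 0.971), DUSP7 and CD44, and IL24 to TIPARP (r = 0.981) and UAP1. IL6 was nearest to THBS1 (r = 0.945), KLF6 and HMOX1, IL23A to SLC35E1 (r = 0.953), HBEGF and GDF15, and CSF1 to SNCAIP (r = 0.922), C3 and MR1. Among the members themselves, r was 0.602 to 0.959 for every pair without CSF1, and -0.630 to -0.0177 for the pairs with CSF1. The points are 5 conditions of 3 libraries, so libraries of one condition are not independent points, and the values are a description with no test.

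The receptors of these ligands, listed together with the related chain OSMR, were a mixed group. Of 16 receptor genes 10 passed the count filter, and OSMR (62.7 CPM per kilobase over the 15 libraries) and IL7R (32.8), a chain of the TSLP receptor, were the most abundant. IL6ST, the shared chain of the IL6 family, rose in PRMT5KO (log2 fold change 0.38, adjusted p = 0.00611), and IL7R rose in both knockouts (PRMT5KO 0.87 with adjusted p = 0.00147, WDR77KO 0.44 with adjusted p = 0.0270). In WDR77KO the IL6ST value was of the same size and its libraries did not overlap sgNeg, but it did not pass (0.38, adjusted p = 0.0780). It passed with sgWDR77-2 alone (0.34, adjusted p = 0.0427), and the knockouts differed in IL6ST by 0.01 (95% interval -0.16 to 0.19, adjusted p = 0.942). So 2 of 10 receptors rose in PRMT5KO and 1 of 10 in WDR77KO, against the 8.73% and 0.838% of all genes called higher there. The other 8 receptors in PRMT5KO and 9 in WDR77KO did not pass, OSMR among them (0.18 with adjusted p = 0.107 and 0.27 with adjusted p = 0.146). With sgPRMT5-2 alone 4 of 10 receptors rose and 2 fell, against 20.9% and 19.3% of all genes. IL6R, the IL6-binding chain, rose there (0.91, adjusted p = 2.31e-06) and was higher in PRMT5KO than in WDR77KO (0.70, adjusted p = 0.00944). The LIF-binding chain LIFR fell with sgPRMT5-2 (-0.27, adjusted p = 0.0141), as did IL20RA (-1.02, adjusted p = 0.00391). The median log2 fold change of the tested receptors was 0.33 in PRMT5KO and 0.13 in WDR77KO, beside -0.0058 and 0.0029 for all genes. CSF2RB was at 0 in all 15 libraries, and CSF3R was at or near 0. CSF2RA and CRLF2 were also listed at 0, but both have copies on X and Y, and reads that fit 2 places may not have been counted.

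Of 20 related ligands, 6 passed the filter in the pooled comparisons, with CLCF1 (9.63 CPM per kilobase) and KITLG (9.62), the ligand of KIT, the most abundant. KITLG fell in PRMT5KO (log2 fold change -0.77, adjusted p = 0.00945), the 1 of 6 that passed there, against 8.30% of all genes lower. None passed in WDR77KO, where KITLG was at -0.44 (adjusted p = 0.143), although it fell with sgWDR77-2 alone (-0.66, adjusted p = 0.00338). CLCF1, another ligand of the IL6 family, did not pass in the pooled comparisons (log2 fold change 0.18 with adjusted p = 0.583 and 0.02 with adjusted p = 0.984) but rose with sgPRMT5-2 (0.51, adjusted p = 0.00773). The related genes that lie next to members stayed low, with IL3 beside CSF2 at 0 reads, OSM beside LIF at 0 to 1 and IL20 beside IL24 at 0 to 6 reads per library.

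All 20 genes of the JAK-STAT list passed the filter. STAT3, the main STAT of the IL6 family, rose in PRMT5KO (log2 fold change 0.31, adjusted p = 0.0151), as did the phosphatase PTPN11 (0.20, adjusted p = 0.0432). Another 6 fell in PRMT5KO, namely STAT4 (-1.53, adjusted p = 0.0178), STAT5A (-1.10, adjusted p = 0.0188), CISH (-0.61, adjusted p = 0.0424), STAT5B (-0.51, adjusted p = 0.0126), STAT2 (-0.44, adjusted p = 0.0386) and PIAS1 (-0.30, adjusted p = 0.0492). CISH is known as a target and inhibitor of STAT5. SOCS3, a feedback inhibitor of IL6-family signalling, was the most abundant gene of the list (39.7 CPM per kilobase). It did not pass in PRMT5KO (-0.28, adjusted p = 0.121) but fell with sgPRMT5-2 (-0.48, adjusted p = 0.000114). Its mean was 126 CPM in sgNeg, 120 with sgPRMT5-1, 90.6 with sgPRMT5-2, 87.7 with sgWDR77-1 and 118 with sgWDR77-2. The list thus had 2 of 20 genes higher and 6 of 20 lower in PRMT5KO, against 8.73% and 8.30% of all genes. With sgPRMT5-2 alone 4 of 20 were higher and 8 lower, against 20.9% and 19.3% of all genes. The list's median was -0.09 in PRMT5KO and 0.03 in WDR77KO.

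All 12 regulators of cytokine mRNA stability were tested, of which KHSRP (81.2 CPM per kilobase) and HNRNPD (67.1) were the most abundant. KHSRP, which binds AU-rich elements and speeds decay, rose in PRMT5KO (log2 fold change 0.32, adjusted p = 0.0174), and ZFP36L2, of the same function, fell (-0.37, adjusted p = 0.0263). That is 1 of 12 in each direction, near the 8.73% and 8.30% of all genes. The other 10 did not pass in PRMT5KO and none of the 12 passed in WDR77KO. The medians were 0.09 in both, beside -0.0058 and 0.0029 for all genes. With sgPRMT5-2 alone 4 of 12 were higher and 2 lower, against 20.9% and 19.3% of all genes.

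**Figure D4:**
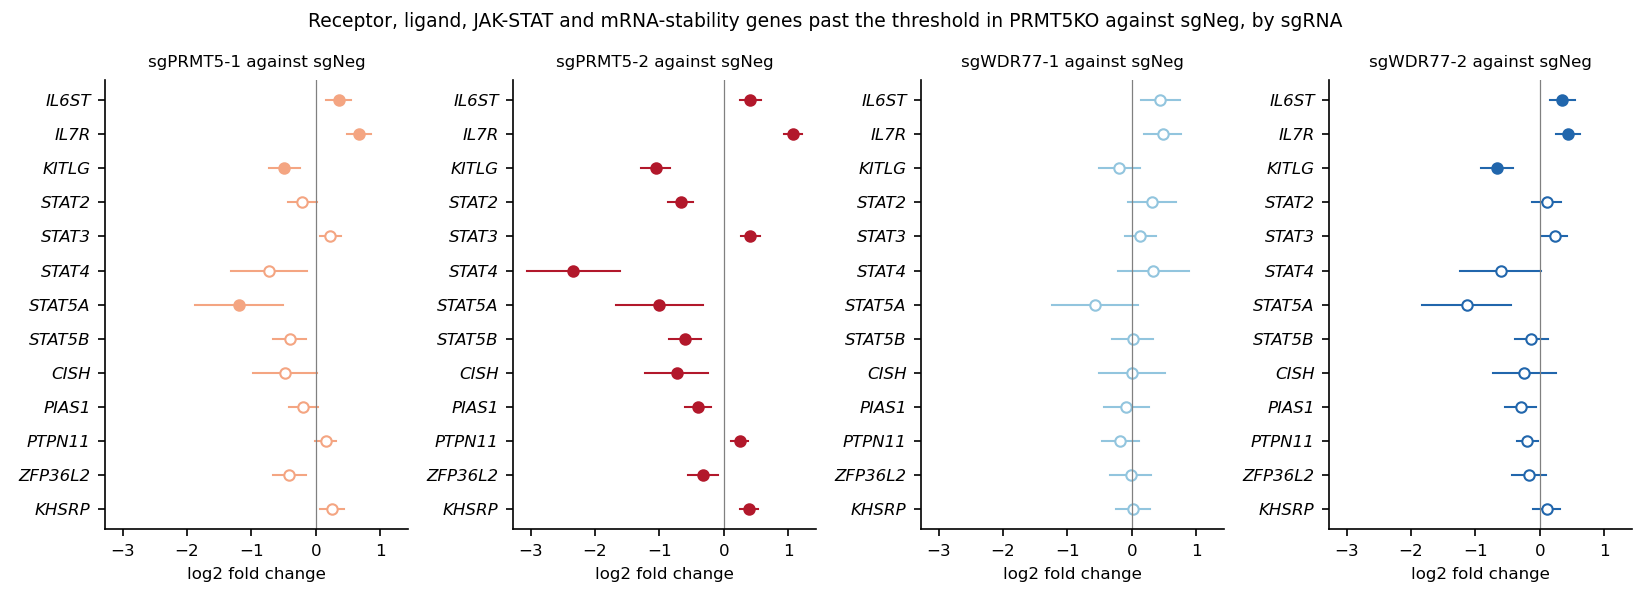
Log2 fold change against sgNeg (x axis) by sgRNA (panels) for the 13 receptor, ligand, JAK-STAT and mRNA-stability genes that passed in PRMT5KO against sgNeg, with 95% intervals and filled points for an adjusted p under 0.05. IL7R lies above 0 in all 4 panels. The fit that chose these genes held the sgPRMT5-1 and sgPRMT5-2 libraries, so their filled points are no separate finding.

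Markers of myeloid cells moved with the members in part. Their summed count over 7 genes was 9 to 11 reads per library in sgNeg, 18 to 25 with sgPRMT5-1, 24 to 31 with sgPRMT5-2, 11 to 31 with sgWDR77-1 and 10 to 18 with sgWDR77-2. Of the list, 6 genes had a read in some library, and CSF1R, also the receptor of CSF1, held 2 to 5 reads per library in sgNeg and 9 to 12 with sgPRMT5-2. ITGAM held 1 to 4 and 8 to 11 reads, and no test is given for it because it reached the count filter only through the knockout libraries. CD14 held 2 to 12 reads per library. PTPRC, CD68 and LYZ held 0 to 2 reads per library, and FCGR3A was at 0 in all 15. Fibroblast markers summed to 41 to 92 reads per library and B cell markers to 0 to 3, with COL1A2 at 0 in all. The endothelial sum was 169 to 198 reads with sgWDR77-1, against 101 to 137 in sgNeg and 74 to 129 with sgPRMT5-1. With sgPRMT5-2 and sgWDR77-2 it was 98 to 102 and 102 to 109, and KDR was at 0 in all. CDH5 was at a mean of 31.7 CPM with sgWDR77-1 and 18.5 CPM in sgNeg. The part of this in the cytokine results was not tested.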

How the data were processed

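RNA from 15 HSC-5 libraries was sequenced as single-end reads, which the authors aligned to hg38 with STAR and counted per gene with htseq-count. The deposited values are whole-number counts, held as tab-separated columns with no header and entered in the unit table as other values, not normalized. Which annotation release and which strand setting were used is not given in the sources used here. The 5 summary lines of htseq-count were kept out. Of all entries listed per library, genes and summary lines together, they held 2.75% to 7.16% outside genes, 7.09% to 7.93% ambiguous and 9.49% to 13.1% with several alignments. The authors used DESeq2, which was not used here, nor was edgeR, because the automated reading of units could not take these tables as counts.

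Counts were scaled with TMM factors (0.3 of log ratios and 0.05 of mean levels trimmed). Genes with a mean normalized count of at least 3 in a comparison were tested with limma voom (limma 3.58.1, R 4.3.3), two-sided, with Benjamini-Hochberg adjustment over all of them and a threshold of 0.05. PRMT5KO and WDR77KO each pooled 6 libraries against 3 of sgNeg, and 9 comparisons were made in all. The members and lists were chosen with earlier results of these data known. A test of CSF3 and IL32 between the sgRNAs of one gene was planned but left out, since their choice used these libraries. Pathway genes were named if they passed in a pooled comparison or were the 2 most abundant of their list, except for results not reported here, and PAN2, STAT2 and SOCS3 values by sgRNA, FCMR, LIF-AS2, CSF1R, ITGAM, IL6R, LIFR and IL20RA were added after their values were seen. The likeness measure used log2 CPM with a prior count of 2.

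Gene lengths and overlaps came from GENCODE v44, to which 60463 of the 60649 identifiers matched, and upstream sequences from RefSeq (GRCh38.p14). The fit was also run on simulated data, with results that are not given here. Replicate pairs differed by more than counting noise (chi-square per gene 1.58 to 19.4), so none was counted as one library deposited more than once. The labels call replicates biological but do not say what separated them, so p-values measure the spread between these libraries. Intervals of count ratios cover counting error only. The alternatives were other scalings, filters, fits and tests, and each library left out in turn.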

Additional observations from a re-analysis of the deposited data

Results flagged for a closer look

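In 2 cases the highest of the 6 WDR77KO libraries stood far from the others, namely IL23A at 5.11 CPM in sgWDR77-1 replicate 3 and IL24 at 17.1 CPM in sgWDR77-2 replicate 1 (gap over range 0.754 and 0.625). Such a gap arises by chance in about 1 of 20 groups of like libraries, and 20 groups were examined. The 6 libraries here were of both WDR77 sgRNAs, which did not overlap for IL24, so this rate may not hold for them.

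A difference between the sgRNAs of PRMT5 was found for 6 members, with log2 fold changes of 2.36 for CSF2, 1.36 for IL6, 0.97 for LIF, 1.95 for IL11, 1.39 for IL23A and 2.42 for IL24 (limma voom, sgPRMT5-2 against sgPRMT5-1, adjusted p from 1.73e-09 for IL24 to 0.000360 for IL23A). All 3 libraries of sgPRMT5-2 were above all 3 of sgPRMT5-1 in each case. PRMT5 mRNA was at 36.8 CPM with sgPRMT5-1 and 42.7 CPM with sgPRMT5-2.

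A difference between PRMT5KO and WDR77KO was found for 4 members, with log2 fold changes of 3.45 for CSF2, 2.51 for IL11, 1.13 for IL23A and 3.43 for IL24 (adjusted p from 0.00919 for IL24 to 0.0458 for IL23A).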

How the results depend on the processing

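The count of members that passed depended on the fit most in PRMT5KO against sgNeg, where it was 2 of 8 as reported, 1 with library totals alone, 1 with the replicate block, 4 with no count filter, and 6 with limma-trend, with all 15 libraries in one fit and, unadjusted, by the exact permutation test (smallest p 0.0238). In WDR77KO against sgNeg the permutation test gave 2 (LIF and IL23A) in place of 1. In the pooled comparisons the permutation test took no account of the sgRNA a library carried. The fit of all 15 libraries left the difference between sgRNAs of a gene out of its error. With all 15 libraries in one fit, sgWDR77-1 against sgNeg gave 2 in place of 1, and sgWDR77-2 against sgWDR77-1 gave 2 (IL6 and IL24) in place of 0. That last comparison gave 1 (IL24) with no count filter. Without 1 library at a time the counts ran from 0 to 5 for PRMT5KO, 0 to 2 for sgWDR77-1 against sgNeg, 1 to 2 for sgWDR77-2 against sgNeg, 0 to 1 for sgWDR77-2 against sgWDR77-1, 3 to 5 for PRMT5KO against WDR77KO, 6 to 7 for sgPRMT5-2 against sgNeg and against sgPRMT5-1, and stayed at 3 and 1 for sgPRMT5-1 and WDR77KO against sgNeg. The cause was not tested. Over single members, 1244 of 1313 alternative values kept their side of the threshold or, for CSF3 and IL32, moved by less than the replicate spread, 28 fell below it, 30 came past it, 11 untested values of CSF3 moved and none that was called changed sign, although some values past no threshold did. The planned edgeR and DESeq2 fits were not run.

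Replicate numbers did not pair the libraries: deviations from the condition means correlated at a median of -0.005 over the 30 same-numbered pairs, and 16 of 60 best matches in another condition had the same number. The replicate block ended the calls of IL23A in PRMT5KO against sgNeg and against WDR77KO and no other member's.

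Genes with few reads in sgNeg, namely CSF3, CSF2, IL23A, TSLP and IL11, have wide errors at 5146711 to 6730428 reads per library, and a count of 2 in sgNeg sets every ratio of CSF3 to sgNeg.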
